A study of Mus musculus with 11 samples.

Results

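Nr4a1, Nr4a2 and Nr4a3, which encode the NR4A nuclear receptors, and the immediate early genes Fos, Fosb, Jun, Junb, Egr1, Atf3 and Ier2 were examined in adrenocortical cells of mouse fetuses lacking Star and of wild-type fetuses. Members were taken by name, through the RefSeq accession that the array design gives each probe. These 10 genes, of 17370 named on the array, had 12 probes, with 2 probes each for Junb and Ier2. The product of Star, the steroidogenic acute regulatory protein, delivers cholesterol to the inner mitochondrial membrane for steroid synthesis. The knockout group was 4 Star-/- fetuses, all labelled male. The wild-type group was 7 Star+/+ fetuses, of which 3 were labelled male and 4 female. All were between E17.5 and E18.5, and the age of each one was given only as that range. In both genotypes the glands were dissociated with trypsin, cells positive for eGFP were taken by flow cytometry, and RNA of each mouse was amplified from 1 ng and hybridised to a single-colour Agilent array. The sources used here do not say which promoter drives eGFP, and so which cells the gate admits.

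Immediate early genes are transcribed within minutes of a stimulus without new protein synthesis, from promoters that are already occupied by factors such as CREB and the serum response factor, and most of their transcripts are short-lived. In the adrenal cortex, adrenocorticotropic hormone acts through cyclic AMP to induce several of them. The NR4A receptors are orphan nuclear receptors controlled mainly by their abundance, and they bind steroidogenic gene promoters in adrenal cell models. Enzymatic dissociation and cell sorting are themselves known to induce many immediate early transcripts.

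Promoter sequences are shown because immediate early genes are classically grouped by the cyclic AMP and growth factor elements near their start sites. RefSeq promoter windows of the build GRCm38.p6 were found for 8 of the 10 genes, and the 250 bases before the start site of 5 of them follow, 5′ to 3′ on the strand of the gene. Nr4a1 lies at chr15:101266596-101266845 on the + strand. Fos lies at chr12:85473640-85473889 on the + strand. Fosb, at chr7:19310046-19310295, Junb, at chr8:84978749-84978998, and Atf3, at chr1:191183334-191183583, lie on the − strand. Capitals mark each match, on either strand, to TGACG, the core of the cyclic AMP response element, or to the EGR motif GCGNGGGCG.
Nr4a1: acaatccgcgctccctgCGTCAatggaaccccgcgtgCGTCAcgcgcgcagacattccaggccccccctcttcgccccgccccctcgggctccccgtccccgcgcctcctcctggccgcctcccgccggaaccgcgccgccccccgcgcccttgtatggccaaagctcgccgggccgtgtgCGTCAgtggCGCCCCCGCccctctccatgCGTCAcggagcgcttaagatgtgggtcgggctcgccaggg
Fos: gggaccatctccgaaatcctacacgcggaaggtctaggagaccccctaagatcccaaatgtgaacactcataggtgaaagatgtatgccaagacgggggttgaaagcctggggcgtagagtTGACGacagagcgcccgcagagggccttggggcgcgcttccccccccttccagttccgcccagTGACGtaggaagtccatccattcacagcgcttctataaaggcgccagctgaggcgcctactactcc
Fosb: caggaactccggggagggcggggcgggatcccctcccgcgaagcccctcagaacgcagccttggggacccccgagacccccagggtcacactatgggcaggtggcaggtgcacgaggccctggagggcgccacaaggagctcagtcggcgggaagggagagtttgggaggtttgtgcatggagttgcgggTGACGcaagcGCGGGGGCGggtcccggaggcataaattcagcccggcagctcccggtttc
Junb: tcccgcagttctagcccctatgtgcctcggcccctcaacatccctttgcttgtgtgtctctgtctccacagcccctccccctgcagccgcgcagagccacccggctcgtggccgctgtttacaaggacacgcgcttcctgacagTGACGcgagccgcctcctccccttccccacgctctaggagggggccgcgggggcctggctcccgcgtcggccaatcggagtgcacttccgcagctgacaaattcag
Atf3: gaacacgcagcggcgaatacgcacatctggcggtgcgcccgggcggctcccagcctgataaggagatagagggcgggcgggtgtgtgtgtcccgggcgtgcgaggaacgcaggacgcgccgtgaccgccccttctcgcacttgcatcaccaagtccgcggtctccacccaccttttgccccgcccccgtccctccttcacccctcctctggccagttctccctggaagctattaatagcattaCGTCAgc

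The core TGACG was found in 7 of the 8 windows, those of Nr4a1, Nr4a2, Nr4a3, Fos, Fosb, Junb and Atf3, against 19.8% of 27025 genes with a window of the same length. In Nr4a1 it occurred 4 times, with the nearest copy at −40 to −36 from the start site, and in Atf3 once, at −7 to −3. The Jun window held none of these letters. The EGR motif was found in Fosb, Nr4a1 and Nr4a2, against 5.33% of genes. A match of this kind is a description of the letters and not a measured binding site. Of the other motifs searched, TATAAA occurred in Fos and Nr4a2, against 14.3% of genes. The full element TGACGTCA, which contains the core TGACG, occurred in 0 of the 8 windows, against 1.77% of genes. The AP-1 motif TGANTCA also occurred in 0 of the 8, against 7.82% of genes. The same held for the NR4A monomer motif AAAGGTCA, against 1.55%, and the CArG box that binds the serum response factor, against 1.62%. At such low shares, 0 of 8 windows does not set these genes apart from other genes. Sequence farther upstream was not searched, and Egr1 and Ier2 had no window.

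Levels are log2 processed signals minus the 75th percentile of the array, so that a difference of 1 is a 2-fold difference in signal. They may be set side by side between arrays for 1 probe but not between probes. The arrays lay on 3 slides, and genotypes were compared within slides. Slide 1 held knockout arrays 1 and 2 and wild-type arrays 1 and 2, slide 2 held knockout arrays 3 and 4 and wild-type array 3, and slide 3 held wild-type arrays 4 to 7. The number of arrays limits the precision. Star itself lay between 1.58 and 3.27 on knockout arrays, against 3.21 to 7.86 on wild-type arrays. Its fitted difference was −4.70 ± 0.93 (limma, adjusted p = 0.0560, past the threshold under 12 of 29 alternatives), and the knockout arrays lay below the wild-type arrays on slide 1 and on slide 2. Where its probe lies relative to the deletion is not stated in the labels. Wild-type array 3, which has no wild-type partner on slide 2, was the dimmest, with a 75th percentile of 115, while the other arrays lay between 166 and 706. Wild-type array 4 went against its label of female, with 2.70 for the Y-linked transcript Ddx3y, inside the range of 2.26 to 3.32 on the arrays labelled male. Of the 8 adrenocortical markers tested, among them Nr5a1 and Cyp11a1, 0 passed the threshold, and all 8 were above background on at least 1 array of each genotype. Of their fitted differences 0 were above 0, against 43% of all genes, and the median was −1.18. Fewer cells of a type and less RNA per cell cannot be told apart in such bulk samples.

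Tested as a difference between genotypes with slide as a term, 0 of the 9 genes measured above background passed an adjusted p of 0.05 (limma, Benjamini-Hochberg over 20766 genes and unnamed probes), where 0.833% of all tested genes did, 0.602% as higher in the knockout. At an unadjusted p under 0.05, 3 of the 9 were higher in the knockout (Nr4a1, Junb and Atf3), against 8.41% of all genes. All 9 fitted differences were above 0, against 43% of all genes. Their median was 0.78 on the log2 scale, where that of all genes was −0.16. The share of all genes with a difference above 0 was 46.7% after quantile normalization, 44.8% after scaling to the median and 32.5% after normexp background correction. With estimated array weights 4 passed as higher (Nr4a1, Fos, Junb and Atf3; limma, adjusted p = 0.0157, 0.0494, 0.0234 and 0.0248), against 6.01% of all genes. Nr4a3 was not tested, because its probe was above background on 1 array.

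**Figure D1:**
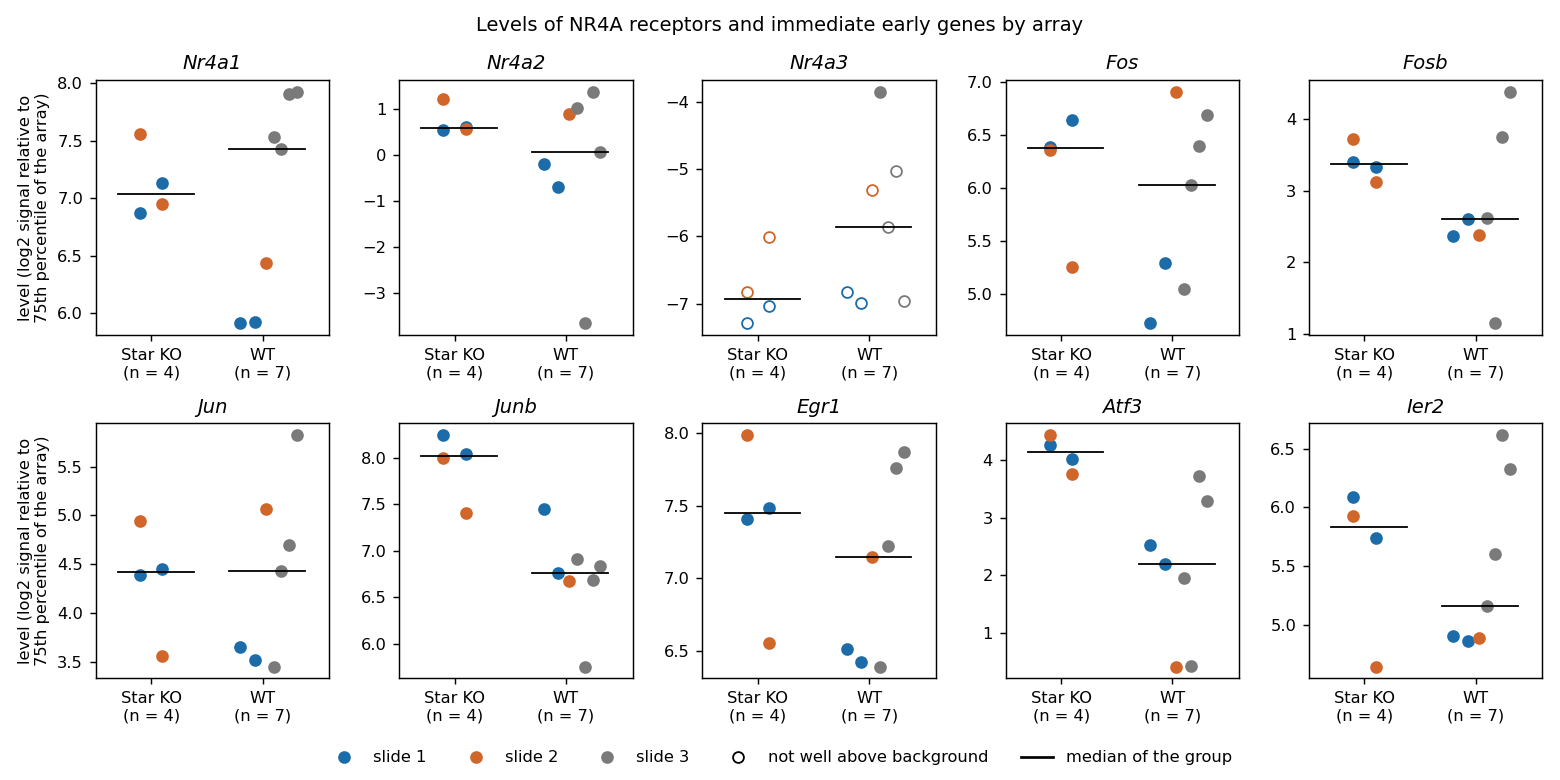
Level of each of the 10 genes on each array, as log2 signal relative to the 75th percentile of the array, with 4 Star knockout arrays (left) and 7 wild-type arrays (right) per panel, coloured by slide. Open circles mark spots not well above background and bars mark group medians; Atf3 is the gene whose knockout points all lie above its wild-type points.

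Nr4a1, the NR4A receptor most closely tied to hormone stimulation of the cortex, had levels of 6.87, 7.13, 7.56 and 6.94 on knockout arrays 1 to 4, against a wild-type range of 5.91 to 7.93 with a median of 7.43. On slide 1 the wild-type arrays read 5.91 and 5.92, and on slide 2 the wild-type array read 6.43. Each knockout array was thus above the wild-type arrays of its own slide, while the 4 wild-type arrays of slide 3, at 7.43 to 7.93, reached as high as the knockout. The fitted difference was 0.98 ± 0.31 (95% interval 0.28 to 1.67, 1.97-fold; limma, adjusted p = 0.155). It was 1.09 on slide 1 and 0.82 on slide 2. Without a slide term it was 0.12, since the high arrays of slide 3 then counted against it.

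The wild-type mean of Nr4a1 was 7.70 on slide 3 and 5.91 on slide 1. In the fit with terms for genotype and slide, which also draws on the knockout arrays, slide 3 exceeded slide 1 by 1.73 ± 0.32 for Nr4a1 (limma, adjusted p = 0.0164). It was the only one of the 9 genes past the threshold in that comparison, where 5.09% of all genes passed and 0.578% were higher on slide 3. The adjusted p was 0.25 with normexp background correction, 0.0911 with quantile normalization, 0.101 when wild-type array 1 was left out and 0.0901 when array 2 was. Slide 3 arrays also carried more chromaffin transcript on 3 of 4 arrays: the summed level of 8 markers, such as Th and Dbh, was 10.54 to 10.95 on wild-type arrays 5 to 7, against 7.54 and 8.84 on slide 1. The same 3 arrays had endothelial sums of 7.92 to 8.69, against 6.65 and 5.96 on slide 1, and stromal sums of 10.41 to 11.12, against 9.23 and 8.44. Their adrenocortical sums were 7.08 to 8.12, against 9.18 and 10.20 on slide 1. On wild-type array 4 the chromaffin sum was 6.66, the lowest of the wild-type arrays, the endothelial sum was 5.84, the stromal sum 8.31 and the adrenocortical sum 10.26, and Nr4a1 read 7.54. The part of these cell types in the Nr4a1 difference was not tested.

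Nr4a2, the receptor best known from dopaminergic neurons, read 0.55, 0.62, 1.22 and 0.57 on knockout arrays, against −3.67 to 1.38 with a median of 0.06 on wild-type arrays. The lowest value, that of wild-type array 5, stood far below the other 6. The groups overlapped, and the difference was 0.62 ± 1.05 (95% interval −1.72 to 2.97; limma, adjusted p = 0.781). Leaving out wild-type array 5 gave 0.62 ± 0.43 (limma, adjusted p = 0.449). It was 1.03 on slide 1 and 0.01 on slide 2. For Nr4a3, the third receptor, the spot was above background only on wild-type array 4, at −3.84, so no difference was computed.

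Atf3, a stress-induced member of the ATF and CREB family, had the largest difference of the 9 genes. Its levels were 4.27, 4.03, 4.44 and 3.75 on knockout arrays, against 0.40 to 3.72 with a median of 2.20 on wild-type arrays. It was the only one of the 9 whose knockout arrays all lay above all 7 wild-type arrays, against 4.13% of all genes, and the gap between knockout array 4 and wild-type array 6 was narrow. On slide 1 the wild-type arrays read 2.52 and 2.20, and wild-type array 3 read 0.40. The fitted difference was 2.55 ± 0.77 (95% interval 0.84 to 4.26, 5.86-fold; limma, adjusted p = 0.139), with 1.79 on slide 1 and 3.69 on slide 2. Leaving out wild-type array 3 gave the slide 1 value, because slide 2 then held knockout arrays alone. With normexp background correction the difference was 2.48 ± 0.56 and passed (limma, adjusted p = 0.0195; range over 29 alternatives 0.0195 to 0.893), where 2.12% of all genes passed as higher.

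Junb, a JUN family protein that pairs with FOS proteins in the AP-1 complex, was read by 2 probes. The brighter one gave 8.24, 8.04, 8.0 and 7.40 on knockout arrays, against 5.75 to 7.45 with a median of 6.76 on wild-type arrays. The groups overlapped only in that wild-type array 1, at 7.45, was above knockout array 4. The second probe gave 7.55, 7.20, 7.54 and 6.48 on knockout arrays, against 5.51 to 6.54 with a median of 6.14, and again knockout array 4 alone fell within the wild-type range. The fitted differences were alike, 1.03 ± 0.39 for the first probe (95% interval 0.17 to 1.90, 2.05-fold; limma, adjusted p = 0.210) and 1.01 ± 0.40 for the second (limma, adjusted p = 0.245). For the first probe the value was 1.04 on slide 1 and 1.02 on slide 2.

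Fosb, another AP-1 subunit, read 3.40, 3.33, 3.72 and 3.12 on knockout arrays, against 1.14 to 4.39 with a median of 2.60 on wild-type arrays. Knockout arrays lay above the wild-type arrays of their own slides, which read 2.37, 2.60 and 2.38, whereas wild-type arrays 6 and 7 of slide 3 exceeded all of them at 3.75 and 4.39. The difference was 0.94 ± 0.67 (95% interval −0.56 to 2.45; limma, adjusted p = 0.475), 0.88 on slide 1 and 1.04 on slide 2. Nr4a1, Fosb, Junb and Atf3 were the 4 of 9 genes whose knockout arrays lay above the wild-type arrays on slide 1 and on slide 2, against 13.7% of all genes.

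Fos and Jun, the founding AP-1 partners, differed between genotypes in opposite directions on the 2 slides. Slide 2 sets male knockout arrays against a female wild-type array, number 3, so sex and genotype cannot be told apart there, while all 4 arrays of slide 1 were labelled male. Fos read 6.39, 6.64, 6.36 and 5.26 on knockout arrays, against 4.72 to 6.91 with a median of 6.02 on wild-type arrays. The highest of all 11 arrays was wild-type array 3, so that the knockout minus wild-type value was 1.5 on slide 1 and −1.10 on slide 2. The fitted difference was 0.46 ± 0.62 (95% interval −0.92 to 1.84; limma, adjusted p = 0.717). Jun read 4.39, 4.45, 4.94 and 3.56 on knockout arrays, against 3.45 to 5.82 with a median of 4.43 on wild-type arrays. Its values were 0.84 on slide 1 and −0.81 on slide 2, again with wild-type array 3 (5.06) above both knockout arrays of its slide. The fitted difference of Jun was 0.18 ± 0.61 (95% interval −1.18 to 1.54; limma, adjusted p = 0.901), and it turned to −0.04 without a slide term and to −0.02 with a sex term.

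A test of whether the genotype difference was unlike on slides 2 and 1 gave −2.60 ± 0.96 for Fos (limma interaction term, unadjusted p = 0.0258, adjusted p = 0.239). Jun gave −1.65 ± 1.17 (limma, adjusted p = 0.552). By this test 0 of the 9 genes passed, where 0.053% of all genes did. The test rests on 1 wild-type array of slide 2.

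Egr1, a zinc finger factor whose induction marks growth factor and cyclic AMP signalling, read 7.41, 7.48, 7.99 and 6.55 on knockout arrays, against 6.39 to 7.87 with a median of 7.15 on wild-type arrays. The ranges overlapped almost wholly, and the difference was 0.64 ± 0.49 (95% interval −0.45 to 1.72; limma, adjusted p = 0.501), 0.98 on slide 1 and 0.12 on slide 2. Ier2, a nuclear immediate early protein, was read by 2 probes. The brighter one read 6.09, 5.74, 5.92 and 4.64 on knockout arrays, against 4.86 to 6.62 with a median of 5.16 on wild-type arrays, and knockout array 4 was the lowest of all 11. Its difference was 0.78 ± 0.46 (95% interval −0.26 to 1.81; limma, adjusted p = 0.394). The dim probe of Ier2 lay between −1.99 and −0.63 on knockout arrays, against −2.30 to −0.40 on wild-type arrays, with a difference of 0.30 ± 0.59 (limma, adjusted p = 0.830).

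**Figure D2:**
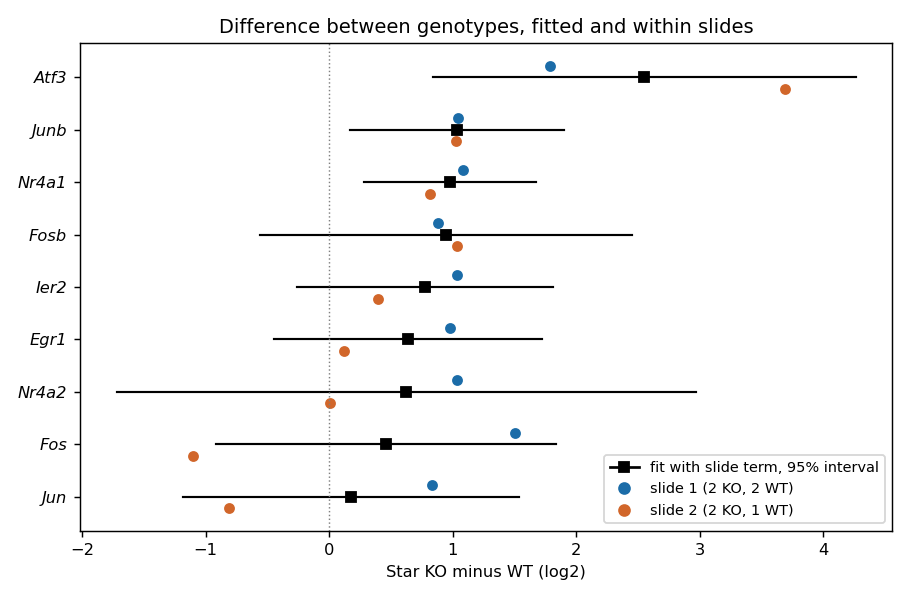
Star knockout minus wild-type difference on the log2 scale for the 9 tested genes, ordered by size, with the fit that has a slide term (squares, with 95% intervals) and the values within slide 1 and slide 2 (dots). Atf3, Junb and Nr4a1 have intervals above 0, all 9 values on slide 1 are above 0, and Fos and Jun lie below 0 on slide 2.

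On slide 1 both knockout arrays exceeded both wild-type arrays for 9 of 9 genes, against 24.1% of all genes. In that slide alone, 9 of 9 had an unadjusted p under 0.05 as higher (limma), against 9.38% of all genes, and 0 passed after adjustment. On slide 2 both knockout arrays exceeded the wild-type array for 4 of 9, against 35.2% of all genes, and lay below it for Fos and Jun, 2 of 9, against 50% of all genes. The median of the 9 differences was 1.03 on slide 1, 0.40 on slide 2 and 0.31 with all arrays and no slide term. Permuting genotype within slides gave 18 arrangements, whose smallest possible two-sided p is 0.0556. That value was reached by Atf3, Junb and Fosb, while the exact permutation p was 0.111 for Nr4a1, 0.167 for Nr4a2, Egr1 and Ier2, 0.500 for Fos and 0.944 for Jun.

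Knockout array 3 was above knockout array 4 of the same slide for 9 of 9 genes, against 45% of all genes. The gap was 1.43 for Egr1 and 1.38 for Jun, more than the fitted difference between genotypes in either. Array 4 of the knockout also had the lower 75th percentile of signal, 190 against 378, and a chromaffin marker sum of 2.44 against 6.85.

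Several of the genes moved together from array to array. Among 28 pairs of the genes other than Atf3, whose genotypes did not overlap, Jun and Egr1 had Pearson r = 0.88 over 11 arrays (permutation p = 6e-04, Benjamini-Hochberg adjusted 0.00896) and Spearman rho = 0.83 (permutation p = 0.00266, adjusted 0.0372). Fos and Jun had r = 0.87 (permutation p = 0.00064, adjusted 0.00896) and rho = 0.85 (permutation p = 0.00195, adjusted 0.0372). Egr1 and Ier2 had r = 0.86 (permutation p = 0.00155, adjusted 0.0145) and rho = 0.78 (permutation p = 0.00625, adjusted 0.0583). Fos and Egr1 had r = 0.84 (permutation p = 0.00258, adjusted 0.0181) and rho = 0.66 (permutation p = 0.0309, adjusted 0.108). Without the 2 arrays farthest from the median of the first gene, r was 0.86 for Jun and Egr1, 0.85 for Fos and Jun, 0.87 for Egr1 and Ier2 and 0.77 for Fos and Egr1. No slide held more than 4 arrays, too few for a value within slides, and after genotype and slide means were removed the same 4 pairs had r of 0.93, 0.89, 0.95 and 0.84. The other 24 pairs did not pass after adjustment of the Pearson p. After the same removal their r ran from 0.004 for Fos and Junb to 0.86 for Nr4a1 and Egr1. Nr4a1 and Ier2 had 0.84 after it. These values after removal were not tested. Junb, which differed more steadily between genotypes, had r = 0.18 with Egr1 (permutation p = 0.598, adjusted 0.853) and r = −0.05 with Jun (permutation p = 0.874, adjusted 0.874). Among these 28 pairs its highest r was 0.60, with Nr4a2 (permutation p = 0.0486, adjusted 0.136). That r was −0.13 without wild-type arrays 5 and 2. With Fosb its r was 0.54 (permutation p = 0.0871, adjusted 0.188). After genotype and slide means were removed, r was 0.82 with Nr4a2 and 0.68 with Fosb. With Atf3, outside the 28 pairs, Junb had r = 0.79, and 0.66 after the removal, neither of them tested. All levels on an array share 1 RNA sample and 1 scaling factor. The permutations exchanged all 11 arrays without regard to genotype and slide, so differences between slides and genotypes enter these p-values. The share of all gene pairs with such r is not given here, so the values do not set these pairs apart from other pairs.

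**Figure D3:**
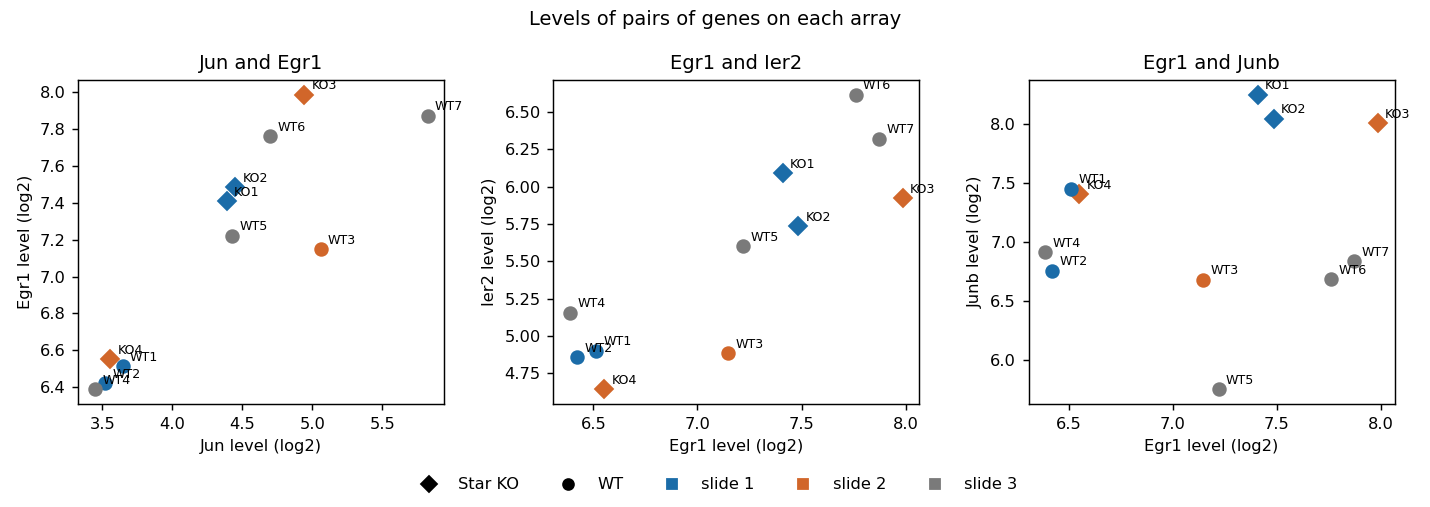
Levels of Jun and Egr1, of Egr1 and Ier2, and of Egr1 and Junb on the 11 arrays, as log2 signal relative to the 75th percentile of the array; diamonds are Star knockout, circles are wild-type and colours are slides. The first 2 pairs rise together with r of 0.88 and 0.86, while Egr1 and Junb have r of 0.18.

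The mean of the standardised levels of the 9 genes was 0.53, 0.52, 0.86 and −0.34 on knockout arrays 1 to 4, against −0.87 to 0.87 on wild-type arrays, where it was high on arrays 6 and 7 and low on arrays 1, 2 and 5. Of 13718 other named genes, those most like this mean over the 11 arrays were Vcan (r = 0.95), Svopl (r = 0.92), Lmna (r = 0.91), Irf1 (r = 0.90), Tiparp (r = 0.89) and Adamtsl1 (r = 0.89). Vcan encodes the matrix proteoglycan versican, Lmna the nuclear lamins A and C, and Irf1 an interferon regulatory factor. For these 6 genes the adjusted p between genotypes was 0.146 or more (limma).

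A further list of 28 immediate early genes, all on the array, had 27 tested members, of which 0 passed in either direction, 10 were higher at an unadjusted p under 0.05 (8.41% of all genes) and 26 had a difference above 0 (43% of all genes). Their median difference was 0.89, with 1.23 on slide 1 and 0.89 on slide 2. Those with the smallest p were Zfp36, an RNA-binding protein that destabilises AU-rich transcripts, with 1.97 ± 0.48 (limma, adjusted p = 0.0932), and Ier3, a survival-associated early response protein, with 2.60 ± 0.65 (limma, adjusted p = 0.0955). Gadd45b, a stress sensor, had 2.16 ± 0.64 and the matricellular protein gene Ccn1 2.44 ± 0.76 (limma, adjusted p = 0.137 and 0.148). Zfp36 was between 3.75 and 4.74 on knockout arrays, against 1.27 to 3.24 on wild-type arrays, with no overlap. All knockout arrays lay above all wild-type arrays for 3 of the 27 tested genes, against 4.13% of all genes. The mean of the Zfp36 probes gave a difference of 1.62 (limma, adjusted p = 0.115).

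Upstream of these promoters, 14 of 16 listed serum response factor, CREB family and kinase genes were on the array, 13 were tested and 0 passed. Their median difference was 0.28 in the fit, −0.10 on slide 1 and thus also when wild-type array 3 was left out. Crtc2, a CREB coactivator, had 1.84 ± 0.40 (limma, adjusted p = 0.0729) and Mrtfa, a serum response factor coactivator, 1.30 ± 0.40 (limma, adjusted p = 0.148). The kinase gene Mapk3 had 1.46 ± 0.58 (limma, adjusted p = 0.229). On slide 1 Crtc2 had 1.21, Mrtfa 0.60 and Mapk3 0.24, which is what remains without wild-type array 3. On slide 2 they had 2.80, 2.35 and 3.30. The mean of the Mrtfa probes gave a difference of 0.47 (limma, adjusted p = 0.54). Downstream, of 6 tested steroid genes reported as NR4A targets, 1 fell, 0 rose and the median was −2.35 (−1.40 without a slide term), while Nr4a1 itself had a positive fitted difference. The one that fell was Akr1c18, which inactivates progesterone, for which the level fell by 6.03 ± 1.15 (limma, adjusted p = 0.0496, past the threshold under 10 of 28 alternatives; 0.467 without wild-type array 3). Its groups overlapped, at −5.00 to −2.42 on knockout arrays, 3 of 4 above background, against −4.85 to 3.32 on wild-type arrays. Without a slide term its difference was −3.27 (limma, adjusted p = 0.258). Of all tested genes, 0.833% passed in either direction. Hsd3b1, a 3β-hydroxysteroid dehydrogenase, had −2.32 ± 0.78 (limma, adjusted p = 0.173). Star, the deleted gene, is also on that list, so the 6 tested genes and their median count the deletion itself.

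Of 10 genes of the ATF4 arm of the stress response, to which Atf3 belongs, 1 rose and 0 fell, and 9 were above 0 (43% of all genes). Their median difference was 1.82, and 0.89 when wild-type array 3 was left out. Trib3, a pseudokinase induced by ATF4 and CHOP, was 4.12 ± 0.48 higher in the knockout (limma, adjusted p = 0.00756; 0.122 without wild-type array 3). Atf5 had 2.42 ± 0.72, Cebpb 1.86 ± 0.57 and Ddit3, which encodes CHOP, 1.91 ± 0.64 (limma, adjusted p = 0.137, 0.146 and 0.174). Leaving out wild-type array 3 gave 0.88 for Atf5, 0.90 for Cebpb and 1.97 for Ddit3. The summed level of the list was 6.25 to 6.67 on knockout arrays, against 5.01 to 6.88 on wild-type arrays. Of 11 tested heat shock genes, which dissociation can also induce, 0 passed, and the median was 0.13 in the fit and −0.56 on slide 2. Hspd1, a mitochondrial chaperonin, had −1.82 ± 0.49, Hspe1, its partner, −1.75 ± 0.63, Hsp90aa1 −1.36 ± 0.52 and the reticulum chaperone gene Hspa5 0.74 ± 0.33 (limma, adjusted p = 0.118, 0.196, 0.216 and 0.269). Their summed level was 9.09 to 9.65 on knockout arrays, against 9.44 to 11.60 on wild-type arrays, and the highest was on wild-type array 3. On that array Fos was also highest, but Atf3 was the lowest of all arrays at 0.40. The mean of the standardised levels of the 9 genes was −0.24 there. The part of dissociation in these levels was not tested.

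**Figure D4:**
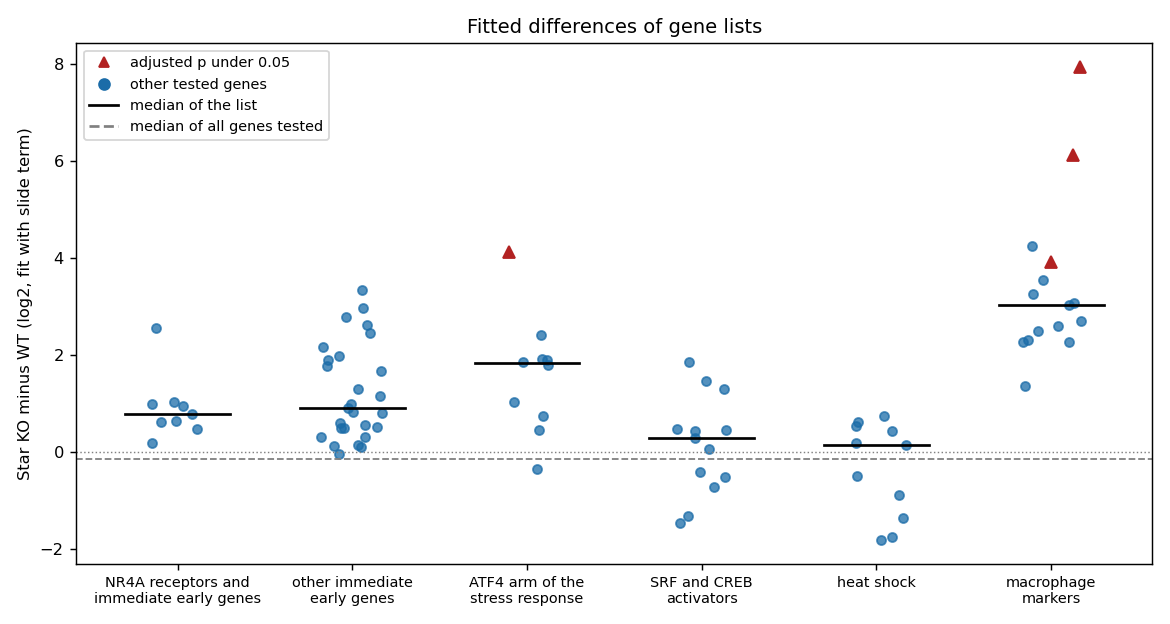
Star knockout minus wild-type differences on the log2 scale (fit with slide term) for the tested genes of 6 lists, each point a gene and each bar the list's median; triangles passed an adjusted p of 0.05 and the dashed line is the median of all tested genes, −0.16. The NR4A and immediate early genes have a median of 0.78, and the macrophage markers one of 3.02.

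Markers of another cell type moved with genotype in the same sort. Of 15 tested macrophage markers of 16, 3 rose and all 15 had knockout arrays above all wild-type arrays (4.13% of all genes). Their median difference was 3.02, with 1.75 on slide 1 and 4.12 on slide 2, and the slide 1 value is what remains without wild-type array 3. The 3 were Trem2, a lipid-sensing receptor (3.92 ± 0.50), Cd5l, a secreted macrophage protein (6.12 ± 0.90), and Gpnmb, a lysosome-associated glycoprotein (7.93 ± 0.79; limma, adjusted p = 0.0132, 0.0231 and 0.00348). Without wild-type array 3 their adjusted p was 0.126, 0.279 and 0.0552. Gpnmb was above background on 4 knockout arrays but on only 2 of 7 wild-type arrays. It met the filter through the knockout, and its difference is measured against the floor. The mean of its probes gave 4.38. Another of the 15 was above background on only 1 wild-type array. The summed macrophage level was 9.55 to 10.41 on knockout arrays, against 5.69 to 8.08 on wild-type arrays. Macrophages also express Atf3, Junb and Egr1, and the part of the macrophage signal in the values of the 9 genes was not tested. Adrenocortical markers summed to 7.33 to 9.07 on knockout arrays, against 7.08 to 10.501 on wild-type arrays. Chromaffin markers summed to 2.44 to 7.21 on knockout arrays, against 6.66 to 10.95 on wild-type arrays, with 0 of 8 past the threshold. Endothelial markers summed to 5.63 to 6.84, against 5.06 to 8.69 on wild-type arrays, and stromal markers to 9.47 to 10.70, against 8.31 to 11.12, with 0 of 7 and 0 of 8 past the threshold. Erythroid markers summed to 9.23 to 10.68 on knockout arrays, against 9.77 to 12.07 on wild-type arrays, with 0 of 7 past it. On slide 1 and on slide 2 the knockout arrays lay below the wild-type arrays in the adrenocortical, chromaffin and erythroid sums. Their stromal sums lay above on both slides, and their endothelial sums above on slide 2 only. Median differences were −1.18 for adrenocortical, −1.22 for chromaffin, −0.99 for erythroid, 1.13 for stromal and 0.63 for endothelial markers.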

How the data were processed

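Gene expression was measured in 11 samples, 4 Star knockout and 7 wild-type, each the RNA of 1 mouse on a single-colour array. The p-values thus measure the spread between mice together with that of sorting, amplification and hybridisation, which cannot be told apart here. Spot values are intensity with background already subtracted, as deposited, from Agilent Feature Extraction, per the file headers. They name version 10.1.1.1 on slides 1 and 2, but 10.5.1.1 on slide 3, the version in the submitters' processing notes. A series table deposited by the authors is on the log2 scale, and the sources used here do not say how it was scaled. Its columns, whose medians ran from −0.17 to 0.90, lay within 0.01 of the levels used here after each probe was centred on its median, for 99.8% of probes.

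Control and outlier spots were left out (77 to 164 outliers per array), replicate spots of a probe were averaged on the log2 scale, and the 75th percentile over 41174 probes was subtracted. The accession of 4569 probes changed between revisions of the design. Through a RefSeq table of GRCm38.p6, 25277 probes had 1 symbol, 92 had several and 15805 had none. The probe of the highest mean stood for its gene, and it was tested if well above background on at least 4 arrays. Each array had between 19070 and 26414 probes well above background and 0 saturated.

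The genotype test used lmFit and eBayes of limma 3.58.1 (R 4.3.3), two-sided, with terms for genotype and slide, 7 residual degrees of freedom and Benjamini-Hochberg adjustment. Slide 3 holds 1 genotype and adds only to the estimate of the spread. The fit was tested on simulated data. Errors are SE of the fit. Summed levels are the log2 of a list's summed linear levels.

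The genes, lists and motifs were chosen with earlier results of these data known. Named list genes are those past the threshold, or else up to 4 with the smallest p (up to 3 for cell markers). The result of 1 list gene is not reported here. Star, as the deleted gene, and Ddx3y, as a check of sex, were named besides. Likeness was taken over all tested named genes. The test of the difference between slides, the 2 alternatives on sex and those on the slide 3 comparison were added after values were seen. Alternatives concerned slide, sex, the replicate number, background, scaling, filters, probes, the series table, array weights, the variance prior and each array left out. Normexp, with an offset of 50, used median spot signals. Random blocks used statmod 1.5.0. Tables were handled with version 1.17.8 of the R package data.table, with pandas 2.3.3 and numpy 2.4.6, and figures drawn with matplotlib 3.10.9 in Python 3.11.15.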

Additional observations from a re-analysis of the deposited data

Results flagged for a closer look

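Nr4a2 stood out on 2 arrays among the 24 combinations of probe and genotype examined for a sample far from its group, of which chance flags about 1 in 20. Knockout array 3 was the highest of the 4 knockout arrays at 1.22, with the next at 0.62. Wild-type array 5 was the lowest of the 7 wild-type arrays at −3.67, with the next at −0.70. Without wild-type array 5 the fitted difference of Nr4a2 was 0.62 ± 0.43, against 0.62 ± 1.05 with it (SE; limma, adjusted p = 0.449 and 0.781): slide 3 enters the spread and not the difference.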

How the results depend on the processing

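Of the 9 genes, 0 passed the threshold in the reported fit, under the replicate block (number as a block in place of slide) and under each alternative other than 2. With normexp 1 passed (Atf3), and with array weights, which ran from 0.158 for wild-type array 3 to 5.30 for knockout array 1, 4 passed (Nr4a1, Fos, Junb and Atf3), where 6.01% of all genes passed as higher. Nr4a1, Nr4a2, Fosb, Junb, Egr1, Atf3 and Ier2 kept a positive difference under all 29 alternatives each, from 0.12 to 1.30 for Nr4a1, 0.86 to 1.49 for Junb and 1.46 to 3.69 for Atf3. Several of these settings cannot change a fitted difference. Leaving out an array of slide 3, a trend in the prior and the filters on dim probes act only on the spread or the adjustment. Leaving out wild-type array 3 repeats the slide 1 value. Fos turned to −1.10 on slide 2 alone. Jun turned to −0.81 on slide 2 alone, to −0.041 without a slide term and to −0.019 with a sex term, and leaving out 1 array gave −0.019 to 0.84. Outside the 9, Trib3 passed under 26 of 29 alternatives, Trem2 under 22 of 29, Cd5l under 19 of 29, Gpnmb under 25 of 28 and Akr1c18 under 10 of 28, each with its sign kept. The count of all genes past the threshold, 173 as reported, was 601 without a slide term, 471 with slide as a random block, 28 with a sex term, 78 with a sex term and without wild-type array 4, 267 on male arrays, 625 with normexp, 92 with median scaling, 403 for probes above background on all 11 arrays, 2336 with array weights, 261 with a trend in the prior and 0 on slide 1 or slide 2 alone (limma; 3860 and 7497 at an unadjusted p under 0.05). Leaving out 1 array gave 10 (without wild-type array 3) to 566 (without wild-type array 4). It was 178 under the replicate block, and same-numbered arrays, with correlations of deviations from −0.01 to 0.22, were not established as pairs. The cause of these shifts was not tested. Standard errors ran from 0.31 (Nr4a1) to 1.05 (Nr4a2, 0.43 without wild-type array 5) and limit what could be detected, and signal over background left Nr4a3 untested.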
